A study of Homo sapiens with 12 samples.

Results

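KURAMOCHI cells (Ku), a human high-grade serous ovarian cancer line, were exposed for 6 hr to THZ1 at 50 nM, the lower of the doses used, and compared with cells given the vehicle DMSO. All gene rows of the Ku expression table entered the comparison of 4 libraries, 2 of DMSO and 2 of THZ1 50 nM, and the 2 Ku libraries at 250 nM entered the fit to help estimate the spread. The table held 23621 gene rows beside its 92 spike-in rows, and 14251 genes were active, which meant above 1 FPKM (a read level scaled to transcript length and library size) in at least 1 of the 12 libraries of the series. The other 8 libraries were Ku at 250 nM and COV362 cells (Cov), a further ovarian cancer line, at 0, 50 and 250 nM, each also in 2 libraries. Each library came from poly(A)-selected RNA of a bulk culture, with ERCC spike-in RNA added in proportion to cell number, and the deposited FPKM values were scaled to that spike-in. The study's methods call the 2 libraries of a group biological duplicates. Ku cells carried no introduced gene. The labels set the groups apart by drug dose alone and give no culture day or batch, and the whole comparison rests on 1 line.

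THZ1 binds covalently to CDK7 and, at higher exposure, also to its relatives CDK12 and CDK13. CDK7 is the kinase of the general transcription factor TFIIH: it phosphorylates the tail of the largest RNA polymerase II subunit at the start of transcription and activates the kinases that drive the cell cycle. CDK12 and CDK13 phosphorylate the same tail later, during elongation, and CDK12 is known for its part in the expression of long DNA repair genes. An inhibitor of such kinases lowers new synthesis of messenger RNA, so after some hours the level of a transcript depends on how fast it was made and on how fast it decays.

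The cells had the transcripts of a serous ovarian line. The lineage factor PAX8 was at 140 and 132 FPKM in the DMSO libraries, the secreted marker WFDC2 at 502 and 446, mesothelin (MSLN) at 69.0 and 68.3, and the simple-epithelium keratin KRT8 at 2489 and 2375. Other markers often used for this tumor were low: MUC16, which encodes CA125, was at 0.172 and 0.159 FPKM, E-cadherin (CDH1) at 0.559 and 0.377, and the estrogen receptor ESR1 at 0.201 and 0.254. Of 12 leukocyte markers 2 were active, with summed levels of 3.20 to 4.04 FPKM in DMSO. Of 10 fibroblast markers 5 were active, with sums of 44.8 to 50.3 FPKM in DMSO and 34.3 to 35.4 at 50 nM. Of 8 endothelial markers 4 were active, with sums of 12.6 to 14.3 and 8.81 to 9.18 FPKM. Their part in the results was not tested. ERCC RNAs above the minimum, 53 of them, deviated from the DMSO mean by medians of -0.00283 to 0.0451 on the log2 scale in the 4 libraries. The values had already been scaled to these RNAs, so medians near 0 were set in advance. The SD of the deviations was 0.131 in each DMSO library and 0.291 and 0.239 at 50 nM. Gene FPKM summed to 1227780 to 1234308 in DMSO and to 976344 to 1023188 at 50 nM. MIR1244 rows, which share sequence with an abundant gene, made up 35.4% of the DMSO sum and were left out of no fit.

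On the spike-in scale most transcripts were somewhat lower with low-dose THZ1, a smaller set was strongly lower, and very few were higher. The median level of active genes was 12.8 and 10.9 FPKM in DMSO and 7.55 and 6.90 FPKM at 50 nM. The median log2 fold change over active genes was -0.40, and it lay between -0.53 and -0.27 in the 4 pairings of a treated with a control library. A negative value was found for 12843 genes, or 90.1%, and 1981 genes, or 13.9%, were below -1. Both treated libraries lay below both DMSO libraries for 10798 genes (75.8%) and above both for 492 (3.45%). The spike-in was added after RNA extraction to samples normalized by cell count, so levels on this scale are per counted cell. In bulk RNA, dying cells among those counted and less RNA in each living cell cannot be told apart.

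Genes were called with limma, a linear model of log2(FPKM + 1) fitted across all active genes, at an adjusted p under 0.001 with a log2 fold change beyond 0.5. By that rule 1607 genes were lower, which is 11.3% of those tested, and 12 were higher, or 0.0842%. These counts come from a fit of 6 Ku libraries, and with the 4 libraries of the comparison alone 9 genes were lower and 1 higher. Among the 1607, 1228 fell by more than 1 on the log2 scale and 163 by more than 2, and the median change of the 1607 was -1.31. Their median DMSO level was 18.4 FPKM against 11.9 FPKM for all active genes. The rule sets this difference in part, because the faintest genes cannot fall by 0.5 on the log2(FPKM + 1) scale. Up to 1 FPKM in DMSO, 16 of 1242 protein-coding genes were called lower (1.29%). At this strict threshold the count changed with every library left out of the 6. Calls lower and higher numbered 55 and 2 without DMSO replicate 1, 131 and 2 without DMSO replicate 2, 12 and 21 without 50 nM replicate 1, 7 and 17 without 50 nM replicate 2, and 6 and 1 without either 250 nM replicate. At an adjusted p under 0.05 the counts were 5734 lower and 88 higher, and 4475 to 6625 lower when each library was left out, and 1600 of the 1607 genes stayed at that level in all 6 such fits.

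How large the fall appears depends on the spike-in. With each library scaled to an equal median, the median change of active genes was 0.10, a shift of 0.50, and with median-of-ratios scaling it was 0.02, a shift of 0.42. On the equal-median scale 105 genes were lower (0.737%) and 16 higher (0.112%). By median of ratios 387 were lower (2.72%) and 74 higher (0.519%). Of the 1607 genes lower on the spike-in scale, 1570 remained negative at equal median and 1606 by median of ratios. At an adjusted p under 0.05 on those scales, 1083 and 1239 of the 1607 were retained, while over all genes the equal-median scale gave 1466 lower and 2350 higher and median of ratios 1954 lower and 1154 higher.

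**Figure D1:**
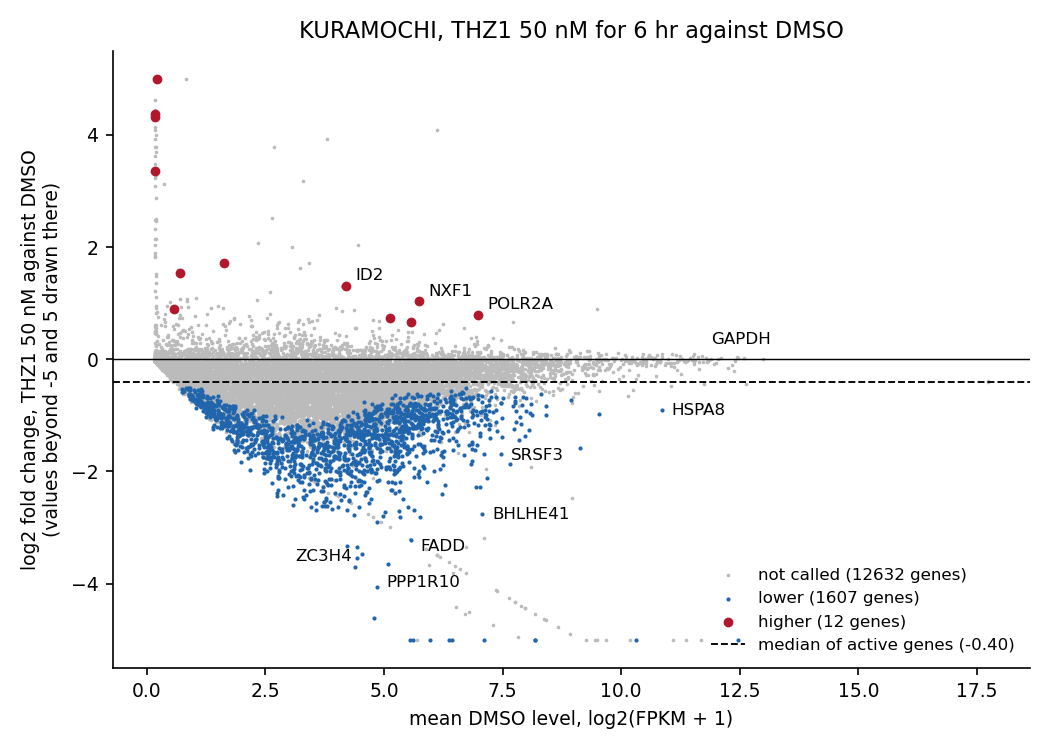
Change against starting level for the 14251 active genes, with mean DMSO log2(FPKM + 1) across and log2 fold change at 50 nM up. The cloud sits below 0 with its median at -0.40, the 1607 genes called lower (blue) spread over low and high levels, and the 12 called higher (red) are few; small-RNA rows reach the limits of the axis.

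Printed here are promoters that belong to the protein-coding genes at the extremes: PPP1R10, ZC3H4 and FADD were among those that fell most, and ID2, NXF1 and POLR2A had the highest log2 fold changes among genes above 10 FPKM in DMSO that were called higher. Each runs from 250 bases before the RefSeq start to 50 after it (GRCh38.p14), written 5′ to 3′ on the gene's strand. Capitals mark any of the 10 short motifs searched on either strand.
PPP1R10, chr6:30617194-30617493, minus strand: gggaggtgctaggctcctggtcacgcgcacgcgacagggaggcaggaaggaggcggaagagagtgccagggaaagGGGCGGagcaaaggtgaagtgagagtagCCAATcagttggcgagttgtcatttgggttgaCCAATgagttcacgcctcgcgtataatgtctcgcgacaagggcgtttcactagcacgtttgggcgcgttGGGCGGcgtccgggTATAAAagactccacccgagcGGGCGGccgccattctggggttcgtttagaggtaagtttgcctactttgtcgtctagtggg
ZC3H4, chr19:47113727-47114026, minus strand: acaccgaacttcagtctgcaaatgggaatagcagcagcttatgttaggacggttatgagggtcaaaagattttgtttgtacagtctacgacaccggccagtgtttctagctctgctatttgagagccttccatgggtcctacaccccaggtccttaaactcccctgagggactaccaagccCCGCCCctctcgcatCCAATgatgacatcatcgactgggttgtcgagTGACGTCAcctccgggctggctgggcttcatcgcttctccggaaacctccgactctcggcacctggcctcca
FADD, chr11:70203046-70203345, plus strand: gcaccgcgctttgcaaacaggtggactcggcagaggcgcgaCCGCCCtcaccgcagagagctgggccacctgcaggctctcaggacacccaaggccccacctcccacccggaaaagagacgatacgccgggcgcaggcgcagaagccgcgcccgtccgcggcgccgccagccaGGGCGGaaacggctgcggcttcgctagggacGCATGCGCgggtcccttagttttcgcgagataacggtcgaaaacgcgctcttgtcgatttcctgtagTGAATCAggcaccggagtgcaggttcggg
ID2, chr2:8681806-8682105, plus strand: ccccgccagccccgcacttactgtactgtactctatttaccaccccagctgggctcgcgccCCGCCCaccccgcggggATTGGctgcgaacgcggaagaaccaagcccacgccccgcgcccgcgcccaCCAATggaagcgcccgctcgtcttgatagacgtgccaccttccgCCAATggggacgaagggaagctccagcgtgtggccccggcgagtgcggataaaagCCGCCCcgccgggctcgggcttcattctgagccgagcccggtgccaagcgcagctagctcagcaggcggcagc
NXF1, chr11:62805391-62805690, minus strand: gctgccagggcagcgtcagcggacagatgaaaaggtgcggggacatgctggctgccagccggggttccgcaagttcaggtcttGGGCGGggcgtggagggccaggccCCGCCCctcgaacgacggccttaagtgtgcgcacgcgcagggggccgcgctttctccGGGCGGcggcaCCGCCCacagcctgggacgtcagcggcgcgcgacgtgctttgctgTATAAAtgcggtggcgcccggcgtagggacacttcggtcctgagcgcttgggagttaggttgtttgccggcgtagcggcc
POLR2A, chr17:7484116-7484415, plus strand: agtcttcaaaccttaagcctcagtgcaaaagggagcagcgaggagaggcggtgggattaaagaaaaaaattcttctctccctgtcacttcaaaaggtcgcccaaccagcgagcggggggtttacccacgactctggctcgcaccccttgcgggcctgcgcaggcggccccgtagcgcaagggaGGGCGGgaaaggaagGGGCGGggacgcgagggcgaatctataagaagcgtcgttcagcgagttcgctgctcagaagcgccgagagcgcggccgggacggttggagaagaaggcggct

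The shares of promoters that held these letters are descriptions with no test. A promoter was matched for 10541 active protein-coding genes, of which 1222 were called lower and 5 higher. The TATA-box letters TATAAA were in 4.75% of promoters of genes called lower and in 5.71% of all active genes, against 11.95% of the 27305 promoters in the table. In the sequences above they begin 32 bases before the start of PPP1R10 and 30 before that of NXF1, a gene that fell and a gene that rose. The GC-box core GGGCGG was in 70.95% of the promoters called lower and 70.3% of the active set (44.6% of the table), and each of the 6 printed promoters holds it. Shares of the remaining motifs among promoters called lower and among active genes were 40.9% and 36.7% for CCAAT (35.7% of the table), 11.3% and 10.2% for CACGTG (7.44%), 7.61% and 5.27% for GCATGCGC (3.27%) and 4.42% and 3.30% for TGACGTCA (1.98%). For TGANTCA they were 4.01% and 4.48% (7.76%), for GGANTTTCC 1.80% and 1.69% (1.64%), for TTTGGCGC 1.06% and 1.07% (0.659%), and for CCATATTAG 0.0818% and 0.0949% (0.0952%). A match is a description of letters and names no bound factor.

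The largest fall of a protein-coding gene was that of PPP1R10, which encodes PNUTS, the nuclear targeting subunit of protein phosphatase 1 that acts on RNA polymerase II at the ends of genes. It stood at 29.1 and 26.4 FPKM in DMSO and at 0.808 and 0.626 at 50 nM, 2.59% of the control mean, with a log2 fold change of -4.06 ± 0.13 (SE, n = 2 per group; limma, adjusted p = 0.00014). At 250 nM it was at 0.230 and 0.317. ZC3H4, a zinc finger protein that restricts unproductive transcription, lies outside the naming rule and was chosen after its values were seen. It was at 21.8 and 19.1 FPKM and then at 1.02 and 1.20 (log2 fold change -3.34 ± 0.13). Both genes were picked for the size of their fall, so the wide gap between treated and control values adds no support. On the GRCh37 annotation PPP1R10 spans chr6:30568190-30586389 on the minus strand with 20 exons.

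Next by size under the naming rule, small-RNA rows aside, were TIGD5, CCDC8 and KRCC1. TIGD5, a transposase-derived gene, went from 20.2 and 19.9 FPKM to 0.657 and 0.586. CCDC8, part of a complex with CUL7 and OBSL1, went from 34.4 and 31.3 to 1.72 and 1.68. KRCC1 went from 20.6 and 20.2 to 0.798 and 0.889. All 3 were called lower, with adjusted p of 0.00014 or 0.00013 by limma and log2 fold changes of -3.70, -3.65 and -3.54. None of them overlapped its controls, which held for all 1607 genes called lower and so adds no support.

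Further protein-coding genes came from the 30 that fell most. Apart from FADD, which the naming rule gave as an extreme of its list, they were chosen after their values were seen. FADD, the adaptor that links death receptors to caspase-8, dropped from 45.4 and 47.2 FPKM to 3.90 and 4.23, 8.77% of control. PRMT6, an arginine methyltransferase that modifies histone H3, dropped from 32.1 and 29.3 to 3.77 and 3.36. IRF2BP1, a transcriptional corepressor, dropped from 39.2 and 39.6 to 4.29 and 5.27. These 3 genes had log2 fold changes of -3.23, -2.79 and -2.81. B3GALT6, which builds the linker of proteoglycans, was at 32.5 and 30.7 and then at 3.99 and 3.88. GEMIN6, a subunit of the SMN complex that assembles spliceosomal snRNPs, was at 46.7 and 42.1 and then at 6.59 and 5.99. LCMT2, a tRNA-modifying enzyme, was at 11.9 and 9.85 and then at 0.687 and 1.01. The treated libraries of all 6 lay far below the controls, and the spread within a pair was small beside the change. Choosing genes by call and size of fall brings this about.

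Above 100 FPKM in DMSO, 103 of 1195 protein-coding genes were called lower (8.62%), and from 30 to 100 FPKM 430 of 2580 (16.7%). Among all active protein-coding genes the share was 11.5%. Leaving out small-RNA rows, the most abundant of all genes called lower were HSPA8, CTGF and TNFRSF12A. HSPA8, the constitutive HSP70 chaperone, was at 1967 and 1743 FPKM in DMSO and at 1021 and 969 at 50 nM (log2 fold change -0.90 ± 0.08, adjusted p = 0.00064 by limma). CTGF, a matricellular protein and target of the YAP pathway, was at 780 and 702 and then at 374 in both libraries. TNFRSF12A, the receptor for the cytokine TWEAK, was at 558 and 556 and then at 182 and 191 (log2 fold change -1.57 ± 0.05). On the equal-median scale these were -0.19, -0.28 and -0.87, each negative and not called.

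**Figure D2:**
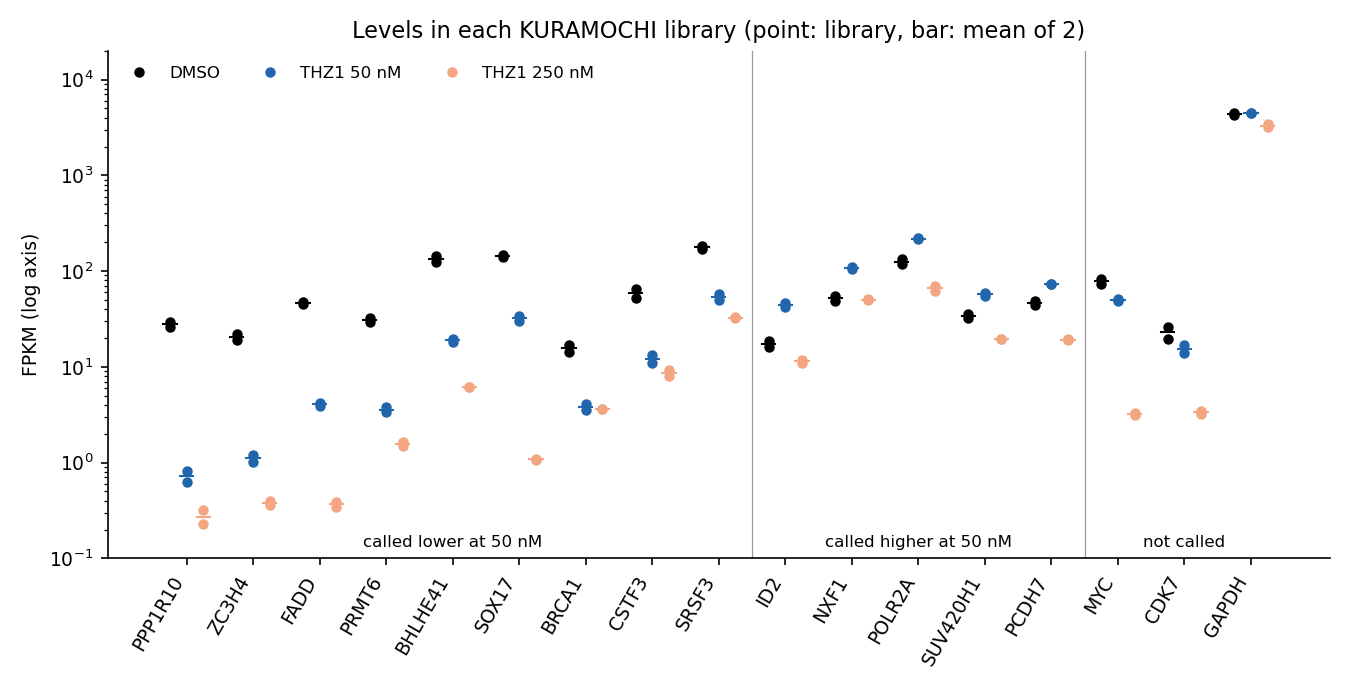
FPKM in each Ku library on a log axis for genes called lower, called higher and not called at 50 nM, with a point per library and a bar at the mean of 2. PPP1R10 falls from 29.1 and 26.4 to 0.808 and 0.626 FPKM, whereas the 5 genes in the middle panel are above DMSO at 50 nM (blue) and at or below it at 250 nM (orange).

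Of the 12 rows called higher, 5 were protein-coding genes above 10 FPKM in DMSO. ID2, an inhibitor of basic helix-loop-helix factors, was at 18.8 and 15.9 FPKM in DMSO and at 46.4 and 42.3 at 50 nM, a 2.55-fold rise of the mean (log2 fold change 1.31 ± 0.11, limma adjusted p = 0.00046). NXF1, the principal export receptor for messenger RNA, was at 55.3 and 49.2 and then at 111 and 104 (1.03 ± 0.08). POLR2A, the largest subunit of RNA polymerase II and so the protein whose tail CDK7 phosphorylates, was at 133 and 118 and then at 223 and 214 (0.80 ± 0.09, adjusted p = 0.00099). These 3 genes did not overlap between groups, which held for all 12 rows called higher and so adds no support. Of all active genes 3.45% had both treated libraries above both controls. SUV420H1, now named KMT5B, a histone H4 lysine methyltransferase, was at 35.8 and 32.0 and then at 59.2 and 55.4. PCDH7, a protocadherin, was at 48.5 and 44.3 and then at 74.1 and 73.5. All 5 were also called higher on the equal-median scale, with log2 fold changes of 1.34 to 1.95.

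The remaining rows called higher were faint or not messenger RNA. NNAT, the imprinted gene of neuronatin, was at 0.637 and 0.621 FPKM and then at 4.02 and 3.50. MGC12916, an RNA of unknown role, was at 1.92 and 2.25 and then at 10.2 and 8.22. MIRLET7DHG, a microRNA host transcript, was at 0.442 and 0.533 and then at 1.98 and 1.55. MIR663A was at 0.172 and 0.158 and then at 2873 and 4526. SNORA60, SNORA34 and SNORD15A were at 0.126 to 0.133 FPKM in DMSO and at 9.34 to 35.4 FPKM in the treated libraries.

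Below the threshold stood genes with rises of similar size whose adjusted p missed 0.001. JUNB, an AP-1 factor, had 20.9 and 18.4 FPKM in DMSO and 36.0 and 37.5 at 50 nM (log2 fold change 0.87 ± 0.14, limma adjusted p = 0.0037). BRD2, a BET family reader of acetylated histones, had 108 and 96.0 and then 155 and 146 (0.56 ± 0.08, adjusted p = 0.0025). FANCA, the Fanconi anemia core gene, had 11.9 and 9.93 and then 18.0 and 18.6 (0.70 ± 0.13, adjusted p = 0.0055). ZMYM5, FASTKD5, HBEGF and THRAP3 had log2 fold changes of 0.92, 0.79, 0.69 and 0.63, with adjusted p of 0.0036, 0.0049, 0.0015 and 0.0022. BRD2, FANCA, FASTKD5 and THRAP3 were called higher on the equal-median scale. All were picked after their values were seen, apart from JUNB, BRD2 and FANCA.

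At 250 nM the genes called higher were lower again. Of the 12 genes called higher at 50 nM, all 12 had a lower mean at 250 nM than at 50 nM, and 10 of them were below their DMSO mean there. NNAT, at 1.06 and 1.71 FPKM, and MIR663A, at 2607 and 2798, stayed above it. The direct contrast of 250 nM with 50 nM called 5132 active genes lower (36.0%) and 6 higher (0.0421%), and it called 10 of the 12 lower. POLR2A stood at 61.8 and 70.2 FPKM at 250 nM, ID2 at 11.8 and 11.01, NXF1 at 50.8 and 49.5, and PCDH7 at 18.9 and 19.4. For ID2, POLR2A and PCDH7 these values are below every DMSO library as well, so the 3 dose levels did not form a monotonic series. This contrast shares the 50 nM libraries with the one that chose the genes, so its calls are no independent support.

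Genes called lower at 50 nM had a lower median still at 250 nM. Their median log2 fold change at 250 nM against DMSO was -2.08, against -1.11 for active genes, a contrast that shares the DMSO libraries by which they were chosen and is no independent support, and 692 of the 1607 (43.1%) were called lower at 250 nM than at 50 nM, beside 36.0% of all active genes. The mean at 250 nM was above that at 50 nM for 93 of them, 2 of which were called. BRCA1 had almost reached its low level at the low dose, with 4.12 and 3.56 FPKM at 50 nM and 3.62 and 3.66 at 250 nM, whereas MYC had not, with 51.2 and 49.2 and then 3.11 and 3.30.

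Genes with few exons had lower log2 fold changes than genes with many. Among 12941 active protein-coding genes, those with 1 exon in the canonical transcript had a median log2 fold change of -0.73 (quartiles -1.36 and -0.11), and 112 of 297 were called lower, 37.7%. With 2 exons the median was -0.58 and 143 of 604 were called (23.7%). With 3 exons it was -0.49 (160 of 818), between 4 and 20 exons it lay from -0.42 to -0.39, and above 20 exons it was -0.33, with 69 of 1710 called (4.04%). The difference between the outer classes was 0.39, and it was 0.326 to 0.536 when each library was left out, with the highest value without DMSO replicate 1. It was 0.46 at equal median.

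The order of the exon classes was also seen within bands of starting level. Single-exon genes had a median DMSO level of 6.10 FPKM, and small changes of faint genes are compressed by the added 1 FPKM. Among genes from 3 to 30 FPKM in DMSO the median was -1.18 for 1 exon (127 genes, 49.6% lower), -0.79 for 2 or 3, -0.61 for 4 to 8, and -0.48 for 9 or more (3609 genes, 7.12% lower). From 30 to 100 FPKM it was -1.26 for 1 exon (44 genes), -0.56, -0.44 and -0.38. FADD has 2 exons, and PRMT6, IRF2BP1, CCDC8, TIGD5, B3GALT6 and LCMT2 have 1. Of the 30 protein-coding genes with the largest falls, 7 had 1 exon and 18 had up to 3, where 2.30% and 13.3% of active protein-coding genes do. PPP1R10 has 20 exons and ZC3H4 has 15.

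By genomic span the gradient was shallower. The median was -0.44 below 5 kb, -0.50 from 5 to 10 kb, and then rose step by step to -0.29 above 160 kb. Called lower were 257 of 1136 genes below 5 kb (22.6%) and 46 of 1369 above 160 kb (3.36%). The rank correlation of span with log2 fold change across these genes was 0.12, and that of exon number was 0.093, both across genes of the same libraries and therefore descriptive. At 250 nM and in Cov at 50 nM the medians of the single-exon class were -1.42 and -0.90, next to -1.07 and -0.88 for the class above 20 exons.

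**Figure D3:**
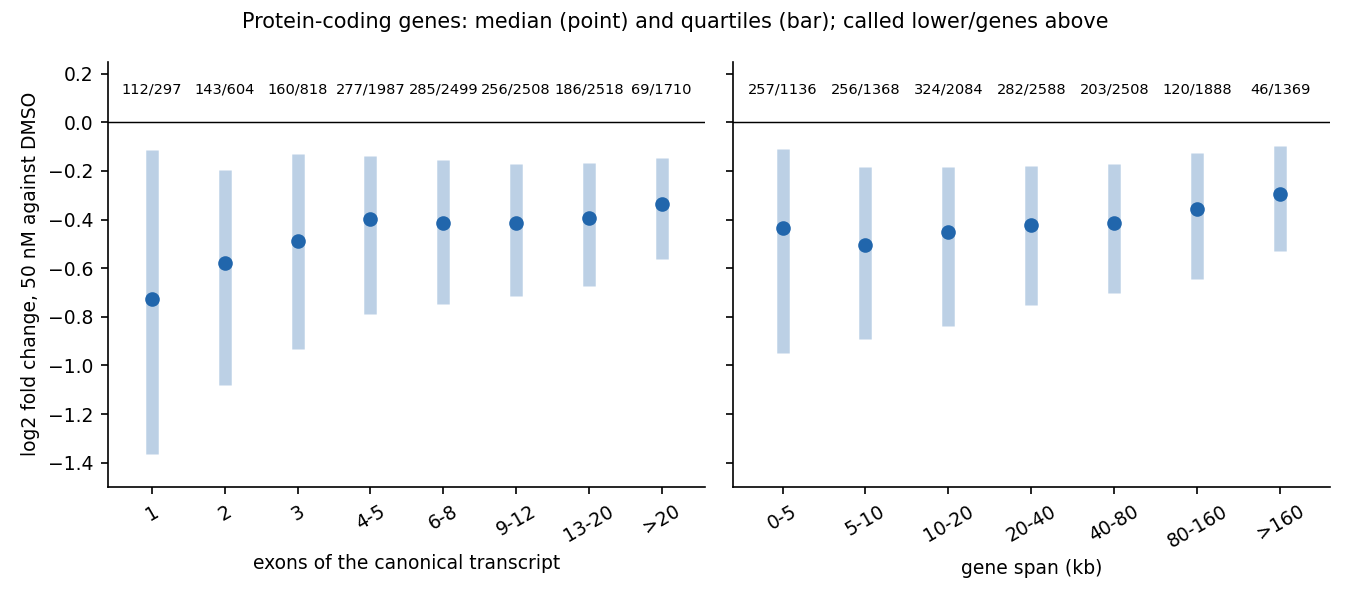
Log2 fold change at 50 nM of active protein-coding genes by exon number (left) and by span in kb (right), with the median as a point, the quartiles as a bar and the number called lower of the number in the class written above. The median goes from -0.73 with 1 exon to -0.33 above 20 exons, and from -0.44 below 5 kb to -0.29 above 160 kb.

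The targets of the drug were not called. CDK7 was at 26.3 and 19.5 FPKM in DMSO and at 16.8 and 14.0 at 50 nM (log2 fold change -0.53 ± 0.17, limma adjusted p = 0.038). CDK12 was at 21.7 and 17.2 and then at 16.3 and 14.1 (-0.33), and CDK13 at 16.4 and 13.9 and then at 13.5 and 12.2 (-0.22). The changes of CDK12 and CDK13 were smaller than the median change of all genes. Covalent occupancy of a kinase is not seen in its messenger RNA.

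Among 10 genes of CDK7 and TFIIH, 2 were called lower, where 11.3% of all active genes were, and the median was -0.58. GTF2H1, the p62 subunit of TFIIH, was at 34.4 and 30.2 FPKM and then at 13.6 and 10.4 (log2 fold change -1.37 ± 0.14, limma adjusted p = 0.00088). GTF2H2, the p44 subunit, was at 57.5 and 52.1 and then at 19.2 and 17.0, a value that may share reads with its near-identical copies. MNAT1 and CCNH, which form the kinase module with CDK7, had log2 fold changes of -0.10 and 0.38.

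Of 16 genes of the other transcriptional kinases and their partners, 2 were called lower (12.5%, against 11.3% of all genes). Both encode proteins of the 7SK particle, which holds P-TEFb inactive. MEPCE, which caps 7SK RNA, was at 68.2 and 61.8 FPKM and then at 16.9 and 14.3 (log2 fold change -1.99 ± 0.19, limma adjusted p = 0.00066). LARP7, which binds the 7SK end, was at 25.6 and 22.6 and then at 10.9 and 10.8 (-1.08 ± 0.10). The P-TEFb cyclins CCNT1 and CCNT2 had values of 0.43 and 0.56 with adjusted p of 0.062 and 0.053.

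RNA polymerase II subunits had values nearer 0 than most genes, and the median of 12 was -0.18, with POLR2H lower (143 and 137 FPKM, then 77.8 and 70.8) and POLR2A higher. Polymerases I and III stood at the other end. Of 27 subunits and factors 11 were called lower, 40.7% against 11.3% of all genes, and the median was -0.81. At equal median all 11 calls were lost, and by median of ratios 1 gene was called lower. POLR3D, a Pol III subunit, was at 15.4 and 12.6 and then at 4.63 and 3.51. UBTF, the ribosomal DNA factor, had a log2 fold change of -1.14 and BRF2, the initiation factor of some Pol III genes, -1.53. GTF3C4, of the Pol III factor TFIIIC, had 0.51 (limma adjusted p = 0.018) and was called higher at equal median.

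Part of the machinery that ends transcripts fell. Of 19 cleavage and polyadenylation factors 7 were called lower (36.8%, all genes 11.3%), and the median was -0.69, against -0.40 for all genes. CSTF3, of the cleavage stimulation factor, was at 65.3 and 52.5 FPKM and then at 13.3 and 10.9 (log2 fold change -2.19 ± 0.15, limma adjusted p = 0.00034). PCF11, the termination factor, was at 14.2 and 11.04 and then at 3.45 and 2.90 (-1.70 ± 0.17). CPSF2, CSTF1, CPSF3, CPSF4 and SYMPK were called lower too, by -0.76 to -1.57. CPSF1 and CPSF6 had 0.03 and 0.17, so the list was mixed. At equal median its median change was -0.02 and 1 gene was called lower, and by median of ratios 2 were.

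Splicing factors of the SR and hnRNP families had a median of -0.56, with 6 of 30 called lower (all genes 11.3%). At equal median these calls were lost and the list median of 0.14 lay above the 0.10 of all genes, and by median of ratios 1 was called. SRSF3 was at 184 and 170 FPKM and then at 58.1 and 50.0 (log2 fold change -1.70 ± 0.09, limma adjusted p = 0.00022), and SRSF1 at 106 and 97.4 and then at 45.9 and 41.5. CLK1, the kinase of SR proteins, had 0.40 (adjusted p = 0.10). Of 12 BET proteins and acetyltransferases 1 was called (8.33%, below the share of all genes), KAT8, the histone H4 acetyltransferase MOF, which went from 18.5 and 17.2 to 7.22 and 6.15.

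DNA repair genes of homologous recombination and the Fanconi anemia pathway had a median of -0.68, and 7 of 28 were called lower, where 11.3% of all genes were. At equal median 1 of the 28 was called lower and 1 higher, and by median of ratios 3 lower and 1 higher. FANCF, a single-exon gene of the Fanconi core complex, was at 6.91 and 6.79 FPKM and then at 0.625 and 0.624 (log2 fold change -2.27 ± 0.09, limma adjusted p = 0.00022). BRCA1, a central repair factor, was at 16.9 and 14.3 and then at 4.12 and 3.56 (-1.78 ± 0.14, adjusted p = 0.0004). BRCA2, a homologous recombination gene, was at 3.69 and 2.94 and then at 1.496 and 1.25 (-0.86 ± 0.14), and its adjusted p of 0.0033 missed the threshold. XRCC2, BLM, FANCE, RMI1 and RAD51C were also called lower, between -1.28 and -1.70. RAD51B and FANCA had positive values, of 0.17 and 0.70. Of 13 checkpoint kinases and mediators 1 was called: ATRIP, the partner of ATR, went from 7.03 and 6.16 to 1.74 and 1.68.

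MYC, the transcription factor, stood at 82.5 and 73.9 FPKM in DMSO and 51.2 and 49.2 at 50 nM (log2 fold change -0.63 ± 0.08, limma adjusted p = 0.0019). The groups did not overlap, but 75.8% of active genes likewise had both treated libraries below both controls. MYC missed the threshold, and on the equal-median scale its value was 0.07. PVT1, its non-coding neighbor, was at 22.2 and 17.7 and then at 16.1 and 14.0 (-0.38). Of 11 active genes of the MYC, MAX and MXD network MLX alone was called, from 37.3 and 34.3 to 7.86 and 8.06. A list of 59 MYC targets had a median of -0.59 with 11 called lower (18.6%, all genes 11.3%), led by PPAN, a ribosome biogenesis factor (40.1 and 37.7, then 5.38 and 4.93), and SLC29A2, a nucleoside transporter (30.1 and 27.8, then 5.54 and 5.97). NOLC1 and PHB had 0.04 and -0.07. At equal median 1 of the 59 targets was called lower, and the list median was 0.08 beside 0.10 for all genes. By median of ratios 2 of the targets were called lower.

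MCL1, the short-lived survival protein, was at 142 and 124 FPKM and then at 106 and 92.6 (log2 fold change -0.41 ± 0.24, limma adjusted p = 0.19), which is close to the median of all genes. Of 15 active BCL2 family genes, BCL2L2 (BCL-W) and the pore-former BAX were called lower (13.3%, near the 11.3% of all genes), with 31.3 and 27.3 going to 10.1 and 9.05, and 69.4 and 61.8 to 32.8 and 29.7. BIM, encoded by BCL2L11, had 0.55 (adjusted p = 0.056). Death receptor and caspase genes had a median of -0.73, and 2 of 19 were called, FADD and TNFRSF1A (10.5%, beside 11.3% of all genes). The TNF receptor TNFRSF1A went from 78.1 and 68.4 to 23.4 and 21.9.

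Immediate early genes lay on both sides of 0. Of 22 active members 6 were called lower, 27.3% against 11.3% of all genes, and the quartiles ran from -1.20 to 0.065. The list median of -0.30 lay above the -0.40 of all genes. At equal median all 6 calls were lost, and by median of ratios 1 gene was called lower. BTG2, an antiproliferative gene, was at 39.9 and 33.3 FPKM and then at 8.63 and 7.80 (log2 fold change -2.02 ± 0.14, limma adjusted p = 0.00035). EGR1 was at 23.2 and 20.7 and then at 5.69 and 5.65, JUN at 38.6 and 36.4 and then at 11.5 and 12.6, and the phosphatase gene DUSP1 at 25.4 and 24.0 and then at 7.40 and 7.92. JUNB and FOS, of the same AP-1 family as JUN, had positive values of 0.87 and 0.44, neither of them called. Both treated libraries of JUNB and FOS were above both controls, as in 3.45% of active genes, and both were named as the highest members of the list.

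ID and SMAD genes had a median of -0.68, with 17 of 19 negative. Of the 19, 5 were called lower (26.3%, all genes 11.3%) and ID2 higher, and at equal median ID2 alone was called. ID1 and ID3, close relatives of ID2, were called lower: ID1 went from 475 and 501 FPKM to 299 and 291, and ID3 from 250.3 and 250.5 to 90.4 and 102. ID3 had a log2 fold change of -1.37 and ID1 of -0.72, which was -0.02 at equal median. TGIF2, a SMAD corepressor, was at 26.1 and 21.5 and then at 5.86 and 4.59, and SMAD6, an inhibitory SMAD, at 14.2 and 14.5 and then at 4.54 and 4.64. Within this family of related inhibitors the members thus moved in opposite directions on the spike-in scale.

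Several lineage factors of serous ovarian cancer fell. Of 9 active members 4 were called lower (44.4%, all genes 11.3%), with a list median of -0.84 beside -0.40. At equal median 1 of the 9 was called lower, and by median of ratios 3 were. BHLHE41, a repressor of the clock family, was at 143 and 125 FPKM and then at 19.8 and 18.2 (log2 fold change -2.75 ± 0.09, limma adjusted p = 0.00014). SOX17, the endodermal and Müllerian factor, was at 139 and 146 and then at 30.3 and 33.9 (-2.12 ± 0.09). PAX8 was at 140 and 132 and then at 42.5 and 41.0 (-1.68 ± 0.10), and MEIS1 at 25.03 and 22.6 and then at 9.50 and 8.34 (-1.32 ± 0.13). At 250 nM SOX17 stood at 1.06 and 1.10. Among structural markers of the same cells, WFDC2 and KRT8 had 0.16 and 0.06, uncalled, while CDH6 and KRT19 were called lower at -0.81 and -0.87.

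NF-kB and chemokine genes had a median of -0.75, with 6 of 21 lower (28.6%). The share of all genes called lower, 11.3%, applies to each count here on the spike-in scale. At equal median all 6 NF-kB and chemokine calls were lost, and by median of ratios 1 gene of that list was lower. CXCL1, a neutrophil chemokine, was at 45.1 and 37.9 FPKM and then at 11.8 and 9.11 (log2 fold change -1.90 ± 0.14, limma adjusted p = 0.00038). TNF itself was at 10.6 and 8.72 and then at 14.7 and 17.1 (0.67, adjusted p = 0.016). Of 16 YAP and TEAD targets 4 were lower, led by ANKRD1, with 218 and 183 going to 57.9 and 49.8. Of 20 ATF4 genes 5 were lower: DDIT3, the CHOP factor of the unfolded protein response, went from 19.0 and 16.0 to 1.52 and 2.26, and CEBPB from 39.5 and 36.7 to 10.8 and 10.96. At equal median the 5 ATF4 calls were lost and 1 of the YAP and TEAD targets was lower. By median of ratios 1 ATF4 gene and 2 YAP and TEAD targets were. Interferon-response genes had a median of -0.52 with 0 of 23 called by limma in either direction, against 13 lower and 0 higher at an unadjusted p under 0.05. KLF genes had -0.20, with 0 of 13 called by limma and 7 lower and 1 higher at an unadjusted p under 0.05.

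The cell cycle lists are given by phase, and differences between them were not tested. G2/M genes had a median of -0.63, and 14 of 54 were lower (25.9%, all genes 11.3%). None of the 14 calls was kept at equal median, and by median of ratios 3 genes were lower. PSRC1, a spindle protein, was at 43.2 and 34.8 FPKM and then at 6.36 and 7.24 (log2 fold change -2.35 ± 0.14, limma adjusted p = 0.00028). AURKA, AURKB and CDC20 of mitosis had -1.20, -1.41 and -1.45, all called. S phase genes had a median of -0.42, near that of all genes, and 4 of 43 were lower, among them the primase gene PRIM1 (21.1 and 16.7, then 4.92 and 5.32). Of 25 genes of the G1 cyclins and RB1 pathway 5 were lower, including E2F5 (39.1 and 34.9, then 9.70 and 7.21), cyclin D1 (CCND1, -1.17) and the CDK inhibitor CDKN1B (-1.33). At equal median these 5 calls were lost, and by median of ratios 1 gene of the list was lower. In p53 target genes 3 of 21 were lower (14.3%), led by PLK3, with 19.98 and 18.1 going to 3.65 and 3.87.

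Zinc finger genes of the ZNF series, a large family of DNA-binding proteins, had a median of -0.66. Of 455 active members 96 were called lower, 21.1% against 11.3% of all genes, and 0 higher by limma where 0.0842% of all genes were, against 2 higher at an unadjusted p under 0.05. At equal median 3 of the 455 were lower, where 0.737% of all genes were, so the excess was gone on that scale. By median of ratios 25 of the 455 were lower, a larger share than the 2.72% of all genes. ZNF747 was at 7.599 and 7.32 FPKM and then at 0.361 and 0.442 (log2 fold change -2.59 ± 0.09, limma adjusted p = 0.00014). ZNF587B and ZNF256 were at the other end, with 0.37 and 0.38.

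Abundant housekeeping transcripts had values near 0. Cytoplasmic ribosomal protein genes, 84 of them active, had a median log2 fold change of -0.04 with quartiles of -0.07 and 0.0026, and 1 was called lower, RPL39L, a paralog (42.2 and 40.8 FPKM, then 20.9 and 18.4). RPL39 itself was at 2302 and 2034 and then at 2424 and 2217. Respiratory chain and ATP synthase genes had -0.09 (2 of 79 lower), glycolytic enzymes -0.10 (0 of 17), proteasome subunits -0.19 (1 of 46), and a set of 12 reference genes -0.08 (0 called). At an unadjusted p under 0.05 limma gave 5 lower and 0 higher among glycolytic enzymes and 2 lower and 0 higher among reference genes. GAPDH, a glycolytic enzyme, was at 4494 and 4305 and then at 4429 and 4517 (0.02 ± 0.09, limma adjusted p = 0.84). All of these lists sat above the median of -0.40, and on the equal-median scale their medians were positive, from 0.51 to 0.67. Mitochondrial ribosomal proteins, made from nuclear genes like their cytoplasmic counterparts, were not like them: the median was -0.56 and 17 of 75 were lower (22.7%, all genes 11.3%), for example MRPS18B, with 68.8 and 62.4 going to 25.6 and 21.7. At equal median and by median of ratios all 17 calls were lost, and the equal-median change of the list, 0.13, lay above the 0.10 of all genes.

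Heat shock genes had a median of -0.19, and 4 of 22 were lower (18.2%, all genes 11.3%). At equal median all 4 calls were lost and the list median was 0.49 beside 0.10 for all genes. By median of ratios 2 genes of the list were lower. The cochaperones DNAJB1 (72.9 and 64.2 FPKM, then 22.3 and 21.8) and DNAJB2 (34.8 and 31.5, then 9.05 and 8.33) fell, while HSPA1A was at 126 and 122 and then at 148 and 151, with a log2 fold change of 0.27 and an adjusted p of 0.011 (limma). HSPA1A shares nearly all its sequence with HSPA1B, so the reads of the pair cannot be separated with certainty. Long non-coding RNAs as a class were near the background, with a median of -0.49 over 349 active rows and 40 called lower (11.5%, against 11.3% of all genes). In a chosen list of 18 nuclear or long-lived ones 5 were lower and the median was -0.93. At equal median 1 of the 18 was called lower, and by median of ratios 2 were. SNHG12, a snoRNA host transcript, was at 78.0 and 69.9 and then at 15.3 and 11.4 (-2.40 ± 0.20), and LINC00657 (NORAD) at 27.8% of its control mean (-1.82 ± 0.09). ZFAS1, another snoRNA host, was at 455 and 349 and then at 425 and 372 FPKM (uncalled).

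**Figure D4:**
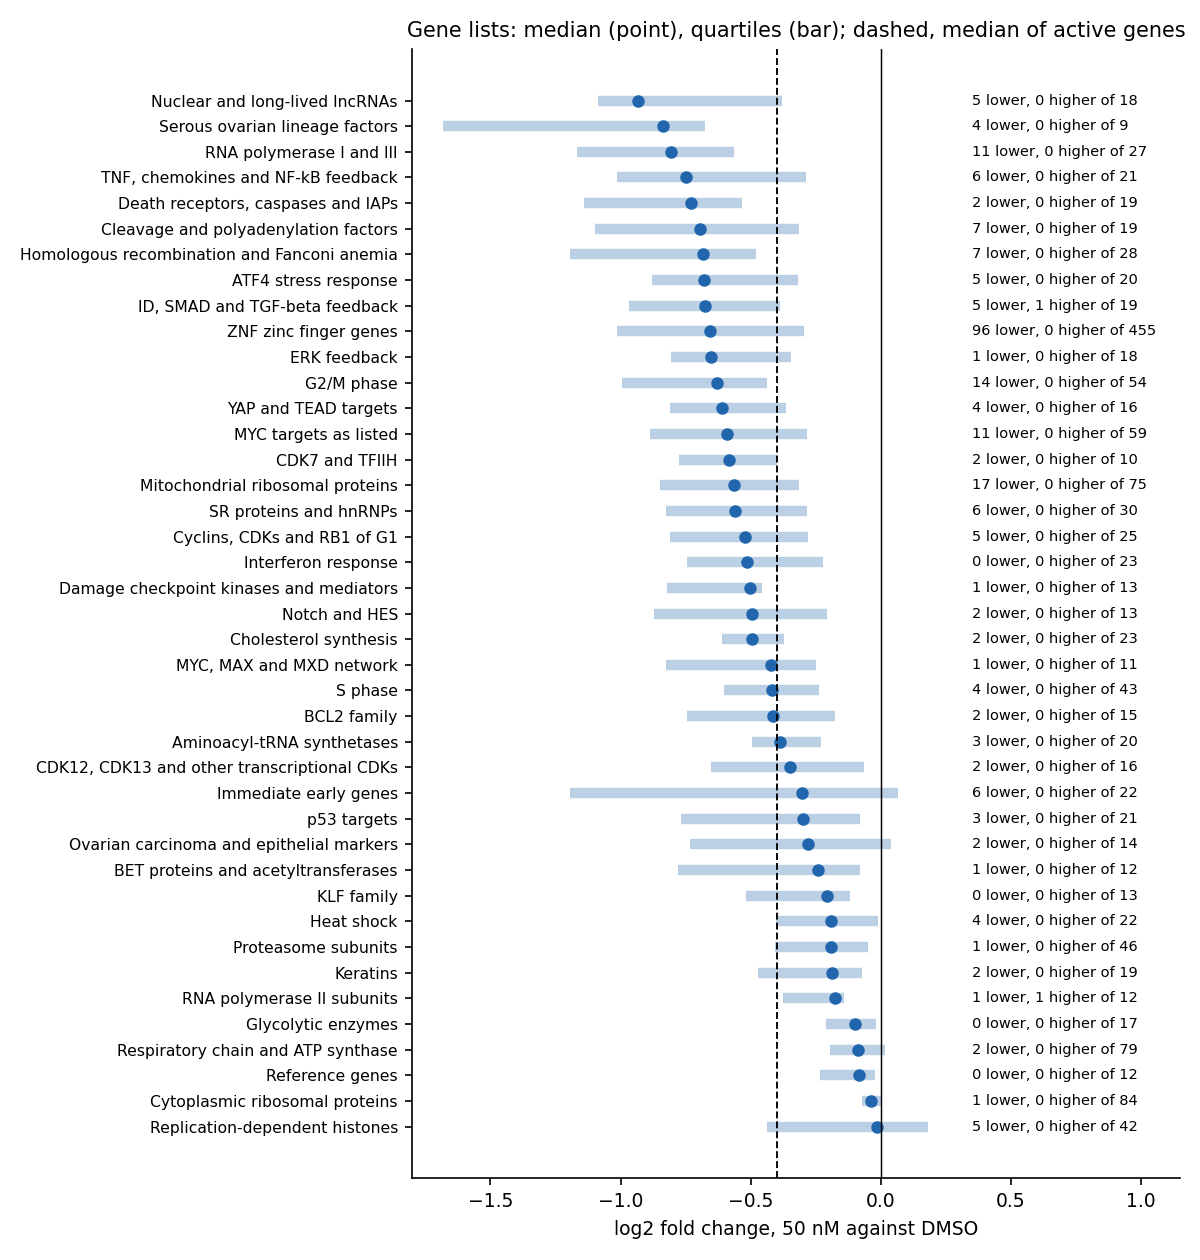
Median (point) and quartiles (bar) of log2 fold change at 50 nM for the gene lists with at least 9 active members, with the number called lower and higher at the right and the median of all active genes, -0.40, dashed. The chosen list of 18 nuclear or long-lived non-coding RNAs, lineage factors and the Pol I and III machinery lie at the low end, and ribosomal proteins, reference genes, respiratory chain and glycolysis near 0.

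Small-RNA rows gave the largest fold changes, from values that often differed between replicates. Of the 15 rows that the naming rule put first, 11 were snoRNAs or a microRNA, namely SNORD47, SNORD45A, SNORD12, MIR3916, SNORD46, SNORA24, SNORA18, SNORD23, SNORA3, SNORA72 and SNORA5C. SNORD47, which guides methylation of ribosomal RNA, was at 3085 and 8180 FPKM in DMSO and at 0.0972 and 0.0933 at 50 nM. SNORD45A was at 1363 and 1183 and then at 0.0972 and 0.0933. Such RNAs are too short for this library type and lie inside host genes, and FPKM divides by their short length. The table also has a shared low value: in each Ku library 5276 rows hold 1 number, 0.118 and 0.119 FPKM in DMSO and 0.107 and 0.103 at 50 nM. The small-RNA rows given above lie close to it in 1 group, and some lie below it, so it is not a strict floor. The 1 FPKM added before the log weighs more in their fold changes than the low value does. Of 256 active small-RNA rows 13 were called lower and 4 higher. The former is a smaller share than the 11.3% of all genes, the latter a larger one than their 0.0842%. However, 84 rows were under 0.2 FPKM in 1 DMSO library and not in the other, and 70 in 1 treated library only. MIR3916 was at 209 and 368, then 0.112 and 0.104, and at 250 nM at 82.9 and 173. The part of read assignment in these values was not tested. Histone rows share reads between copies as well: of 42 active rows 5 were lower (11.9%, all genes 11.3%), and HIST1H4C had 0.92 (limma adjusted p = 0.0011), from 0.702 and 0.592 FPKM to 1.98 and 2.27.

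Cov at 50 nM was analysed in its own table, which was scaled separately, so values are set side by side and the difference between the lines was not tested. In Cov 10042 of 14251 genes were called lower (70.5%) and 11 higher (0.0772%), with a median log2 fold change of -0.85. Of the 1607 genes lower in Ku, 1487 were lower in Cov, which is 92.5% of the Ku list and 14.8% of the Cov list, and the former share stands beside the 70.5% of all genes. Their median in Cov was -1.38. Across the 14251 genes the log2 fold changes correlated with a Pearson coefficient of 0.47 and a Spearman coefficient of 0.59. PPP1R10 fell in Cov too, from 25.6 and 28.4 FPKM to 1.21 and 1.07, as did FADD, from 98.0 and 102 to 12.2 and 14.8, and SOX17, from 113 and 121 to 34.3 and 32.2.

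Genes called higher in Ku were mostly not called in Cov. Of the 12, 8 had a positive log2 fold change and 1, MGC12916, was called higher there. ID2 was at 13.7 and 16.1 FPKM in Cov with DMSO and at 19.8 and 19.5 at 50 nM (0.38, not called), NXF1 at 39.6 and 43.2 and then at 54.2 and 53.6 (0.37, not called), and POLR2A at 54.1 and 59.98 and then at 61.4 and 58.9 (0.08, not called). SUV420H1 had -0.46 and was not called, and PCDH7 had -0.68 and was called lower, though Cov held little of it, 4.84 and 5.34 FPKM in DMSO.

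**Figure D5:**
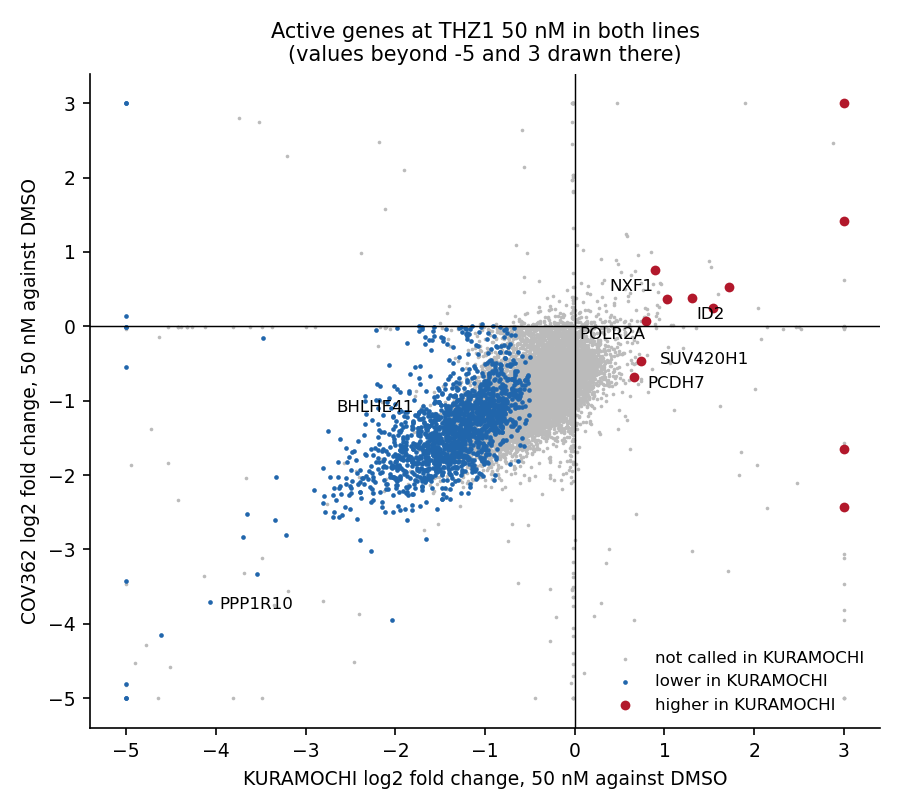
Log2 fold change at 50 nM against DMSO in Ku (across) and in Cov (up) for the 14251 active genes, colored by the Ku call. Genes lower in Ku (blue) are nearly all below 0 in Cov, where most others are as well, and PCDH7 and SUV420H1 are above 0 in Ku and below it in Cov.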

How the data were processed

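RNA was sequenced from KURAMOCHI (Ku) and COV362 (Cov) cells given DMSO or THZ1 at 50 or 250 nM for 6 hr, with 2 libraries per group, from a stranded poly(A) kit. The authors aligned the reads to hg19 with HISAT, obtained FPKM with Cufflinks and Cuffnorm, and normalized the deposited FPKM values to ERCC spike-in RNA, in a separate table for each line. Tool versions, the gene annotation and the strand setting of the counting are not given in the sources used here. The tables hold no counts, which leaves sequencing depth unknown, and precision rests on the 2 libraries per group.

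Spike-in rows were removed, and genes above 1 FPKM in at least 1 of the 12 libraries were tested. Values of log2(FPKM + 1) of the 6 Ku libraries entered a linear model in limma 3.58.1 (R 4.3.3), with eBayes moderation and a mean-variance trend, and p-values were adjusted by Benjamini-Hochberg over all tested genes. Fold changes are therefore on the log2(FPKM + 1) scale, which understates those of low genes. Genes past 0.5 in log2 fold change, in either direction, were called where the adjusted p was under 0.001. The same fit was made for Cov. An exact two-sided permutation test of 2 against 2 libraries cannot go below p = 0.33, so single genes were not tested that way. The script was tested on simulated data. Where nothing shows separate cultures beyond the term biological duplicate, p-values measure the spread between these libraries only.

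Gene symbols were matched to the annotation directly for 20503 rows and through a synonym for 1542, and 1576 were not matched. Exons, spans and coordinates are those of GRCh37, and promoters are RefSeq sequences of GRCh38.p14. The gene set and the lists were chosen with earlier results of these data known. Named genes were the 15 called lower and up to 15 called higher with the largest change, the 5 most abundant called lower, the genes the study names, and the 2 lowest and 2 highest members of each list. Other genes, among them further members of lists, were named after their values were seen. Alternatives covered the pseudocount, the minimum FPKM, the scaling, the samples fitted, the variance model, the thresholds, the replicate block and each library left out.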

Additional observations from a re-analysis of the deposited data

Results flagged for a closer look

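For some named genes both treated libraries lay on one side of both DMSO libraries in Ku and on the opposite side in Cov. The difference between the lines was not tested, because their tables were scaled separately, and the median of all active genes was -0.40 in Ku and -0.85 in Cov. Each gene is given with its log2 fold change at 50 nM in Ku and then in Cov. Among genes of transcription and splicing these were CCNH (0.377 and -0.768), CCNT1 (0.432 and -0.576), CLK1 (0.399 and -0.749), GTF3C4 (0.511 and -0.647) and THRAP3 (0.626 and -0.588). Among signaling, adhesion and chromatin genes and zinc fingers they were PCDH7 (0.659 and -0.682), SUV420H1 (0.743 and -0.461), HBEGF (0.687 and -0.495), ZNF256 (0.381 and -0.809) and ZNF587B (0.37 and -0.585). Chaperone and marker genes were HSPA1A (0.267 and -0.338), HSPA1B (0.263 and -0.252), MSLN (0.072 and -0.428) and WFDC2 (0.162 and -0.66), the first pair of which share nearly all their sequence. Small-RNA rows with opposite signs were SNORA34 (4.31 and -2.42), SNORA60 (4.37 and -1.65) and SNORA72 (-5.16 and 4.01). In Ku these small-RNA rows lie close to the shared low value in 1 group, where the added 1 FPKM limits the size of the fold change. For the other genes the Cov values, though negative, all lay above the Cov median of -0.85, so the opposite signs hold on the spike-in scale and Cov was not rescaled.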

How the results depend on the processing

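The counts of called genes moved with most choices, while among 146 named genes no called gene changed sign under any alternative. Uncalled genes near the all-gene median did change sign at equal median, among them MYC (0.07) and CDK7 (0.14). Against 1607 lower and 12 higher, the fit gave 3 and 0 with no minimum FPKM (limma, with 15198 lower and 252 higher at an unadjusted p under 0.05), 3094 and 25 with the minimum applied to Ku libraries alone, 3497 and 27 with protein-coding genes alone, 9 and 1 with the 4 libraries of the comparison alone, and 5734 and 88 at an adjusted p under 0.05. Without the variance trend 7 were higher. Equal-median scaling gave 105 lower and a median change of 0.10, median-of-ratios scaling 387 lower, 74 higher and a median of 0.025, and no minimum a median of -0.13. Leaving out each library gave 6 to 131 lower and 1 to 21 higher, and the exon class difference ranged from 0.326 to 0.536. The cause was not tested. With the replicate number as a block 989 genes were lower and 9 higher, but same-numbered libraries did not deviate together (r from -0.00871 to 0.000345), so the numbers were not taken as pairs. Pseudocount 0.1, a minimum of 10 FPKM, a condition mean above 1 FPKM and re-centring on ERCC RNAs kept both counts within 1.5 times.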
